A study of Mus musculus with 39 samples.

Results

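Sh3pxd2b is a protein-coding gene of mouse chromosome 11 that starts 47.0 kb beyond the downstream end of the α-globin domain. In genome build mm9 it lies at chr11:32247820-32328173 on the forward strand (ENSMUSG00000040711.7), is 80.4 kb long, and its coding transcript has 13 exons and 12 introns. It is 1 of 1648 protein-coding genes annotated on the chromosome. The rule that selects it is its name and position and uses no measured value, but the gene was picked with earlier results of these data known. DpnII, the restriction enzyme of the assay, divides the gene into 168 fragments with a median length of 355.5 bp, of which 164 held a read in at least 1 library. The gene appeared in the data in both possible roles. It held 2 viewpoints, C in intron 1, 6.83 kb from the gene start, and CX in intron 2, 32.1 kb from it, and it was a target of 10 viewpoints that lie upstream of it.

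Sh3pxd2b encodes TKS4, a scaffold protein with a PX domain and SH3 domains that is known for its part in the assembly of podosomes and in cell migration. The α-globin domain is a stretch of chromatin whose genes and enhancers contact each other frequently in erythroid cells. Sites bound by CTCF, a zinc finger protein that can halt cohesin as it extrudes chromatin loops, flank the domain, and the downstream pair, +44 and +48, lies between the globin genes and Sh3pxd2b.

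The study asked when and how the α-globin domain forms, and used NG Capture-C to count how often a captured fragment, the viewpoint, had been ligated to each other fragment of the genome. In total, there were 39 samples in 13 groups, set by cells, treatment and capture. Some samples are second runs or technical replicates of others, and several groups hold the same kind of cells. MFL cells were erythroblasts of E12.5 mouse foetal livers, expanded in culture, depleted of Ter119-positive cells (MFL 0 h) and differentiated further (MFL 30 h), so that each population holds a range of stages. The mES cells were the E14 line, of 129/Ola background, in which α-globin is silent. DKO erythroblasts carried a homozygous deletion of the enhancers MCS-R1 and MCS-R2 and were compared with WT erythroblasts, and AMKO erythroblasts lacked both α-globin genes. Other WT erythroblasts received DRB, which blocks transcriptional elongation, or its solvent DMSO for 3 hours, or neither. All of these were MFL 30 h cells. The labels give C57Bl6 for all MFL libraries, whereas the methods of the study give a mixed background for its mutant and wild-type mice. On either account MFL and mES cells may differ in genetic background as well as in cell type, and the parts of the 2 cannot be told apart. The MFL libraries from R1 and R2 were taken as 30 h from their description, although their time label gives 0 h. Contact data hold no expression, so no marker genes could be checked against the labels.

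C, CX, A, E and EX were captured in MFL 30 h and mES cells, with 3 replicates each. R1 and R2, the enhancer viewpoints, were captured in MFL and mES cells with 3 replicates each, and in single WT and AMKO libraries. Hba1/2, the mean of the viewpoints at both α-globin promoters, and HS39_5, a CTCF site at the upstream end of the domain, were captured at 0 h and 30 h and in DKO and WT cells, with 3 replicates each. The +44 and +48 sites were captured in DKO and WT cells, and Hba1/2 also in the single DRB, DMSO and untreated libraries. Measured to the gene start, the distance was 22.0 kb from +48, 26.5 kb from +44, 42.5 kb from A, 51.6 and 64.4 kb from Hba.2 and Hba.1, 96.3 and 102 kb from R2 and R1, 97.4 kb from E, 111 kb from HS39_5 and 115 kb from EX. A viewpoint held between 2287 and 188599 reporter reads in a library and sequencing run. Between 49.8% and 88.1% of them lay on chromosome 11, and values are given as a percentage of these cis interactions or per kb of target, for 100000 cis interactions.

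Both viewpoints inside the gene end at DpnII sites, and the bases at their ends are shown because ligation at these sites produced every interaction counted from C and CX. The sequences come from the forward strand of mm9 and run 5′ to 3′, with the recognition site GATC in capitals. Of their bases, 50.8% in C and 51.3% in CX are G or C.
C, first 60 bases, chr11:32254012-32254071: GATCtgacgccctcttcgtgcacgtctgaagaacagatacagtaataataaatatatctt
C, last 60 bases, chr11:32255226-32255285: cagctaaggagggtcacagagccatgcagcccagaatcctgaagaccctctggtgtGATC
CX, first 60 bases, chr11:32279757-32279816: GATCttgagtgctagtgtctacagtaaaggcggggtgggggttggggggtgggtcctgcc
CX, last 60 bases, chr11:32280038-32280097: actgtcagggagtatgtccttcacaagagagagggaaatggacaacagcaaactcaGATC

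From viewpoint C, interactions with the α-globin domain were fewer in MFL than in mES cells, whereas those with the sequence on the far side of the domain were not. The domain was taken as a fixed interval of 63.7 kb that ends before the gene, and the upstream flank as an equally long interval just before that. In mES cells, 4.45%, 4.08% and 4.31% of cis interactions from C fell in the domain (4.28% ± 0.19, SD, n = 3). In MFL cells the shares were 1.11%, 1.19% and 0.977% (1.09% ± 0.11, SD, n = 3), below every mES value, with a log2 difference of −1.98. In the upstream flank, the mES replicates held 2.71%, 2.80% and 2.66% and the MFL replicates 2.66%, 3.04% and 2.99%. These groups overlapped, with a log2 difference of 0.09 and a two-sided exact permutation p of 0.3. In a comparison of 3 with 3 replicates this test cannot give a p below 0.1, which was the p of the domain share (adjusted over 16 shares and ratios, 0.107).

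From CX, further into the gene, the difference in the domain was larger. The mES replicates held 3.54%, 3.03% and 2.90% of cis interactions in the domain (3.16% ± 0.34, SD, n = 3), and the MFL replicates 0.507%, 0.511% and 0.520% (0.513% ± 0.007, SD, n = 3). The log2 difference was −2.62, with no overlap. In the flank, 2.11%, 1.99% and 1.93% in mES cells stood against 1.64%, 1.59% and 1.53% in MFL cells, a log2 difference of −0.34. Both shares had the smallest p of the exact permutation test, 0.1.

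The order of domain and flank was thus turned between the cell types, as the plot of interactions along the locus shows. In mES cells, the flank over the domain was 0.642 ± 0.043 from C and 0.644 ± 0.039 from CX (SD, n = 3), so the farther interval was contacted less. In MFL cells the same ratios were 2.69 ± 0.34 and 3.12 ± 0.14, and the farther interval was contacted more. The log2 differences of 2.06 from C and 2.28 from CX had no overlap between groups (exact permutation p = 0.1). The highest 5 kb window of the plot beyond the domain was centred 177.5 kb before the gene start, where the mean from C was 65.2 interactions per kb in mES and 131 in MFL cells, and from CX 53.1 and 76.4. This window lies just beyond the flank and is not part of the ratios above.

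**Figure D1:**
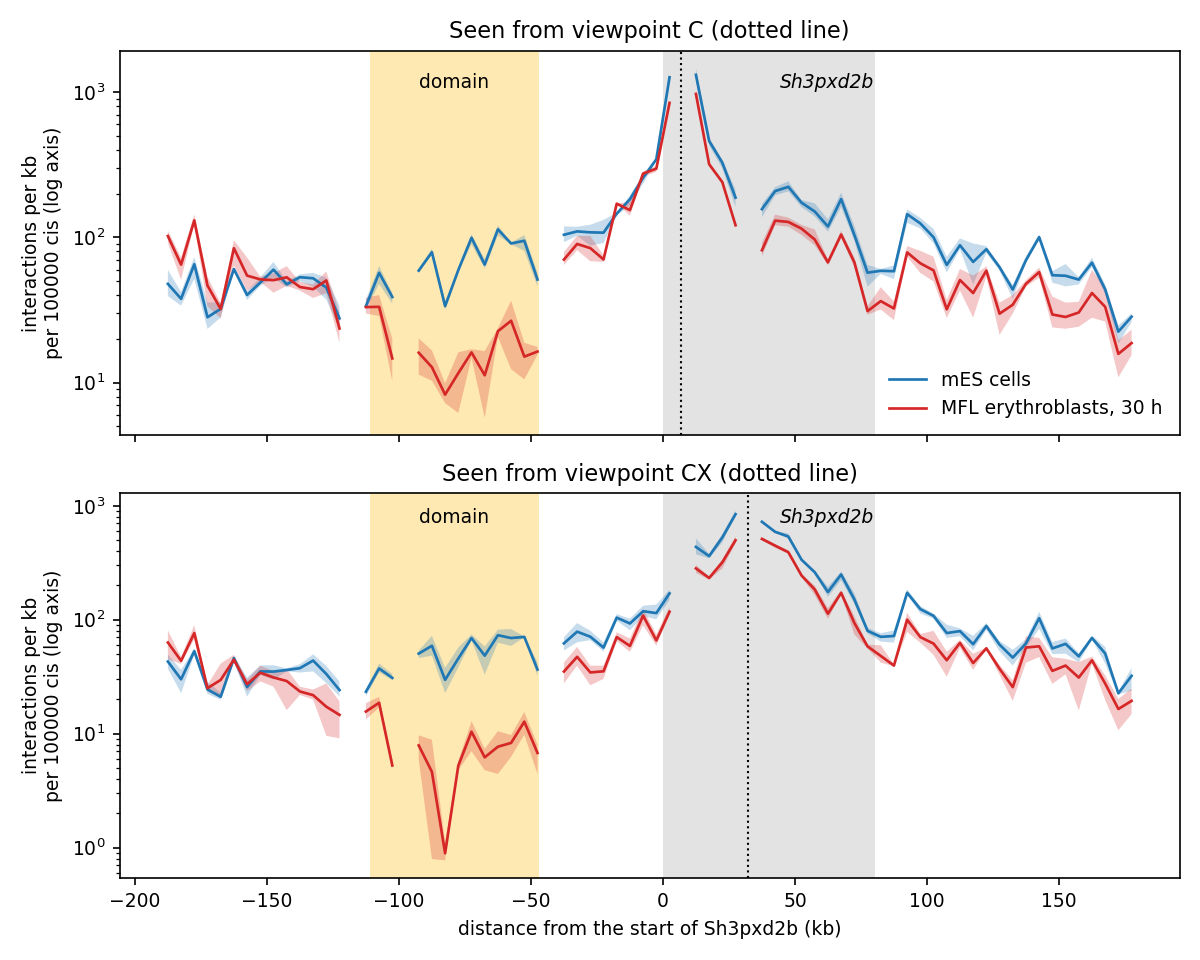
Interactions per kb in 5 kb windows along the locus from C and CX, on a log axis against the distance from the start of Sh3pxd2b in kb. Lines are means and bands the range over 3 replicates in mES and MFL cells, the dotted line marks the viewpoint, and gaps are fragments left out around viewpoints. The MFL line lies below the mES line over the domain. Over the upstream flank the 2 lines lie close together or cross from C. From CX they do so only in the far part of the flank, and the MFL line lies below in the part nearer the domain.

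Intervals at a matched distance on the other side of each viewpoint were also compared. The mirror of an interval is the interval of equal length and equal distance downstream of the viewpoint. About C, the mirror of the domain runs from 60.7 to 124 kb after the gene start, so it takes in the end of Sh3pxd2b. From C, the domain over its mirror was 0.749, 0.734 and 0.673 in mES cells and 0.341, 0.330 and 0.280 in MFL cells, a log2 difference of −1.18. From CX, the ratio was 0.944, 0.795 and 0.714 in mES cells and 0.188, 0.226 and 0.196 in MFL cells, a log2 difference of −2.00. The upstream flank over its mirror went the other way, with a log2 mean of −0.23 in mES and 0.59 in MFL cells from C, and −0.43 and 0.13 from CX. None of these 4 ratios overlapped between the cell types, and each had the smallest exact permutation p, 0.1. Both mirrors were themselves contacted less in MFL cells. From C the mirror of the flank had 52.5 ± 1.5 interactions per kb in mES and 31.6 ± 2.3 in MFL cells (SD, n = 3). From CX it had 44.3 ± 0.9 and 23.8 ± 1.7, while the flank itself also fell, from 33.0 ± 1.5 to 26.0 ± 0.9. The higher ratio of flank to mirror from CX thus came from the larger fall of the mirror. From C the higher ratio also came mostly from the mirror, which fell by 0.74 on the log2 scale. The flank itself differed by 0.09 from C, with overlap between the cell types.

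**Figure D2:**
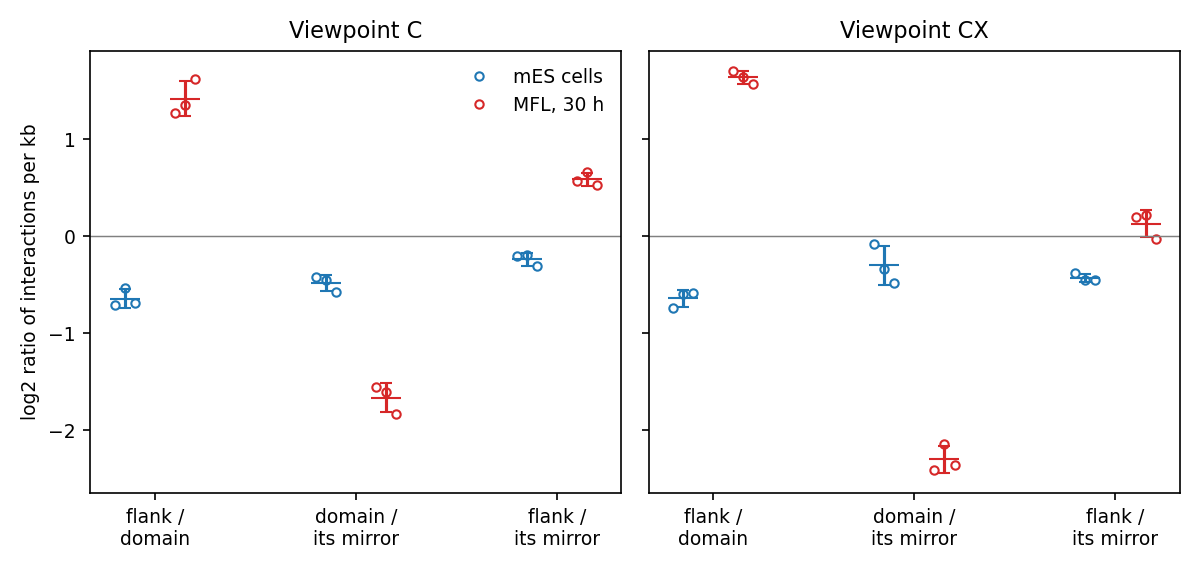
Log2 ratios from C and CX of the domain to its mirror, of the upstream flank to its mirror and of the flank to the domain. Circles are the 3 replicates of mES and MFL cells and bars the mean and SD. All 3 MFL replicates lie below the mES replicates for the domain and above them for both ratios of the flank.

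The nearer surroundings of C and CX were also contacted less in MFL cells. The region between the domain and the gene, which holds the +44 and +48 sites and A, received 7.12% ± 0.25 of cis interactions from C in mES and 6.23% ± 0.20 in MFL cells, and 3.71% ± 0.39 and 2.37% ± 0.06 from CX (SD, n = 3). The window of the gene's own length downstream of it received 6.14% ± 0.42 and 3.58% ± 0.35 from C, and 6.47% ± 0.29 and 4.07% ± 0.27 from CX. None of these shares overlapped between the cell types (exact permutation p = 0.1). All cis interactions within 500 kb of the viewpoint also made up less in MFL cells, 66.3% ± 1.8 in mES and 48.6% ± 0.7 in MFL cells from C, and 64.7% ± 2.0 and 44.4% ± 0.2 from CX. When shares were taken of the interactions within 500 kb, the log2 difference of the region before the gene from C turned from −0.19 to 0.26 and that of the flank from CX from −0.34 to 0.20, while the domain stayed lower in MFL cells, at −1.54 from C and −2.08 from CX.

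Contacts of C and CX with the rest of their own gene took the largest share among the 5 intervals compared. From C, 32.1%, 29.8% and 28.6% of cis interactions in mES cells and 20.4%, 20.3% and 19.9% in MFL cells fell within Sh3pxd2b. From CX, the shares were 35.4%, 32.7% and 33.2% in mES and 21.9%, 22.3% and 21.9% in MFL cells. Within the gene, these shares fell by 0.58 (SE 0.04) from C and by 0.62 (SE 0.03) from CX on the log2 scale, with limma adjusted p of 2.0e-50 and 1.8e-61. From C, 18 of 397 genes tested on the chromosome (4.53%) were called lower and 119 (30%) higher, and from CX 22 of 394 (5.58%) lower and 137 (34.8%) higher, while the median log2 difference over all genes tested was 0.97 from C and 1.01 from CX. These p-values rest on a spread that limma pooled over all genes. Without a trend of the variance on the mean they were 0.17 and 0.12, and with edgeR both calls held. As a share of the interactions within 500 kb the log2 differences were −0.13 and −0.07.

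Along the gene, 38 windows of 2 kb could be tested. Of these, 30 from C and 28 from CX were lower in MFL cells and 0 were higher, where 14.8% and 17.5% of all windows tested on the chromosome were lower and 3.46% and 4.03% higher (limma, adjusted p under 0.05). The median log2 difference of the gene's windows was −0.63 from either viewpoint. Over all windows tested it was −0.48 from C and −0.56 from CX. Over all genes tested the median had the opposite sign, 0.97 from C and 1.01 from CX. The cause of this difference in sign was not tested. How much of the fall was shared along the chromosome therefore cannot be told from these medians. The window with the smallest adjusted p from C, at chr11:32256001-32258000 in intron 1, held 3865 ± 146 in mES and 2445 ± 27 in MFL cells (log2 difference −0.66, adjusted p = 8.5e-06). From CX it was chr11:32282001-32284000 in intron 3, with 3780 ± 49 and 2286 ± 110 (−0.73, adjusted p = 3.1e-10). Values are interactions per window for 100000 cis interactions (SD, n = 3). Each of these 2 windows lies close to its viewpoint and held the most interactions of the gene's windows tested. Their differences were near those of the whole gene (−0.58 from C and −0.62 from CX), so they do not mark a place of particular change. The counts dropped to 4 and 1 windows when interactions within 500 kb served as the total, and to 0 from both viewpoints without the variance trend.

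Neighbouring genes, named by their position, were also compared as targets of C and CX. Hba-a1 and Hba-a2, which encode α-globin, Hba-x, which encodes embryonic ζ-globin, and Nprl3, whose introns hold the globin enhancers, all had fewer interactions in MFL cells. Nprl3 received 1.77% ± 0.09 of cis interactions from C in mES and 0.791% ± 0.058 in MFL cells (log2 difference −1.17, limma adjusted p = 1.6e-21), and from CX 1.39% ± 0.10 and 0.358% ± 0.035 (−1.95, adjusted p = 1.6e-45). Hba-x had log2 differences of −3.21 from C and −2.49 from CX, Hba-a1 of −2.41 and −4.37, and Hba-a2 of −2.26 and −3.70. In MFL cells the means of these 3 genes were between 0.00580% and 0.0327%, a few reads per library at most, so that the size of these 3 differences depends on the 1 added before the logarithm and is no bound. The α-globin genes are near-identical copies, and reads may be split between them.

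Beyond the domain, Il9r, a cytokine receptor gene, differed by 0.10 from C and −0.03 from CX on the log2 scale and passed the test from neither. Snrnp25 did not pass it either, with 0.11 and −0.34. Rhbdf1 and Mpg, near the upstream end of the domain, did not pass from C (−0.16 and −0.23) but fell from CX, by 0.86 and 0.98. On the downstream side, Ubtd2, Efcab9, Stk10 and Fbxw11 all fell from both viewpoints. Their log2 differences from C and CX were −0.72 and −0.62 for Ubtd2, −0.92 and −0.85 for Efcab9, −0.76 and −0.85 for Stk10 and −0.53 and −0.54 for Fbxw11. All interactions within 500 kb fell as well, from 66.3% to 48.6% from C and from 64.7% to 44.4% from CX. The neighbouring genes are not given here as a share of that total or without the variance trend, so a change beyond this general fall was not shown for the downstream genes.

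As a target, Sh3pxd2b had fewer interactions in MFL than in mES cells from every viewpoint outside it that was captured in both. From E, a fragment in Nprl3 beside R2, 3.05%, 2.91% and 3.08% of cis interactions in mES cells reached the gene, and 0.512%, 0.591% and 0.470% in MFL cells. The groups lay far apart, a 5.76-fold fall on the log2(value + 1) scale (log2 difference −2.53, SE 0.11, limma adjusted p = 1.0e-10). Among 321 genes tested from E, Sh3pxd2b had the smallest adjusted p, where 36 genes (11.2%) were lower, 24 (7.48%) were higher and the median log2 difference over all genes was −0.12. From R1/R2, the values were 3.40%, 2.96% and 3.35% in mES and 1.18%, 0.814% and 0.951% in MFL cells, without overlap. The gene fell by 1.73 (SE 0.13) on the log2 scale (limma adjusted p = 2.5e-05), where 17 of 359 genes (4.74%) were lower, 43 (12%) were higher and the median was 0.54.

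From A and EX, which lie just outside the domain on either side, the fall was smaller. From A, the nearest of these viewpoints, the mES replicates had 4.33%, 4.04% and 4.68% and the MFL replicates 1.87%, 2.01% and 2.18%. The log2 difference was −1.1 (SE 0.10, limma adjusted p = 2.1e-09), where 22 of 351 genes (6.27%) were lower, 40 (11.4%) were higher and the median was 0.60. From EX, the farthest viewpoint, 2.59%, 2.24% and 2.49% stood against 1.28%, 1.32% and 1.52%. The log2 difference was −0.83 (SE 0.10, limma adjusted p = 9.1e-09), where 14 of 371 genes (3.77%) were lower, 26 (7.01%) were higher and the median was 0.45. Without the variance trend the calls from E and R1/R2 held, with adjusted p of 0.011 and 0.024, and those from A and EX did not, with 0.12 and 0.23. The contrasts from A, E, EX, C and CX come from the same libraries.

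**Figure D3:**
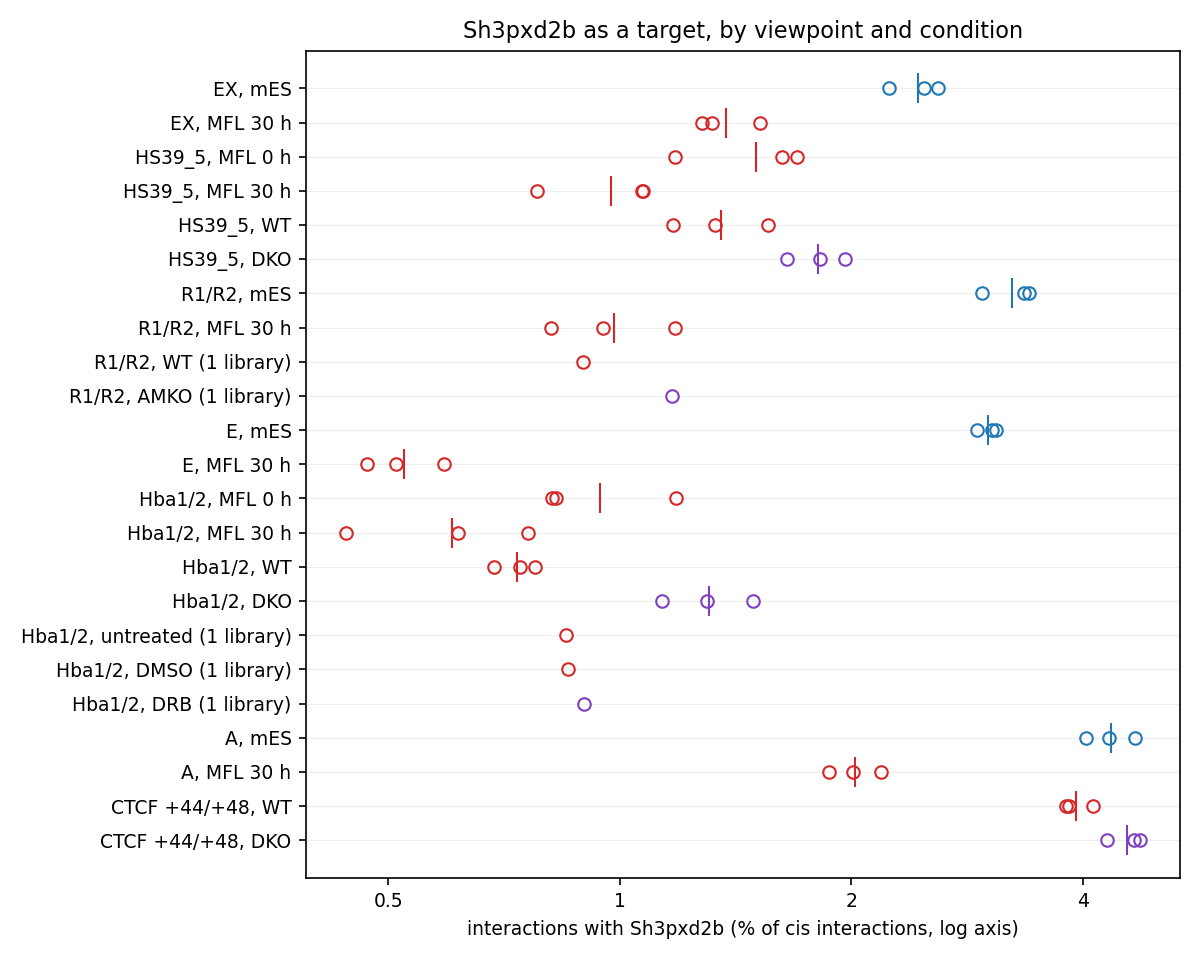
Share of cis interactions that fell in Sh3pxd2b, in percent, from each viewpoint outside it in each condition. The axis is logarithmic, circles are replicates and bars their means, and conditions with 1 library have 1 circle. From R1/R2, E, EX and A every MFL circle lies below every mES circle.

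The difference varied along the gene, as the plot of 2 kb windows shows. Per kb from A, the part before C held 78.1 ± 11 interactions in mES and 59.1 ± 8.9 in MFL cells, the part from C to CX 59.8 ± 1.4 and 34.6 ± 5.1, and the part from CX to the gene end 55.2 ± 5.5 and 19.9 ± 3.0 (SD, n = 3). The log2 differences were −0.40, −0.80 and −1.48. From EX they were −0.29, −0.44 and −1.21, and from R1/R2 −1.33, −1.44 and −2.06. The log2 ratio of the last to the first part was lower in every MFL than in every mES replicate from A, EX and R1/R2, by 1.07, 0.92 and 0.72, with an exact permutation p of 0.1 each (adjusted over 11 comparisons, 0.275). From E, where the log2 differences were −1.70, −2.50 and −2.71, this ratio overlapped between the cell types (exact permutation p = 0.3).

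From A, 10 of the 38 windows tested were lower and 0 were higher, where 4.66% of all windows tested were lower and 3.02% higher (limma, adjusted p under 0.05). The median log2 difference was −1.41 over the gene's windows and −0.97 over all windows tested. The window with the smallest adjusted p overlaps exon 9, at chr11:32310001-32312000, with 178 ± 24 in mES and 55.6 ± 12.6 in MFL cells (log2 difference −1.68, adjusted p = 0.021). The count of lower windows was 0 without any 1 of the 3 mES replicates and at most 18 under the other settings, and 25 windows had an unadjusted p under 0.05. In MFL cells, 101 to 249 reads per run from A lay in the whole gene, and 3 reads corresponded to 25.6 to 65.9. Many MFL windows, also the named one, thus lie near the floor, and some held 0 in a replicate. The sizes of these window differences are therefore uncertain. Thinning of the deeper mES libraries was not done from A.

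**Figure D4:**
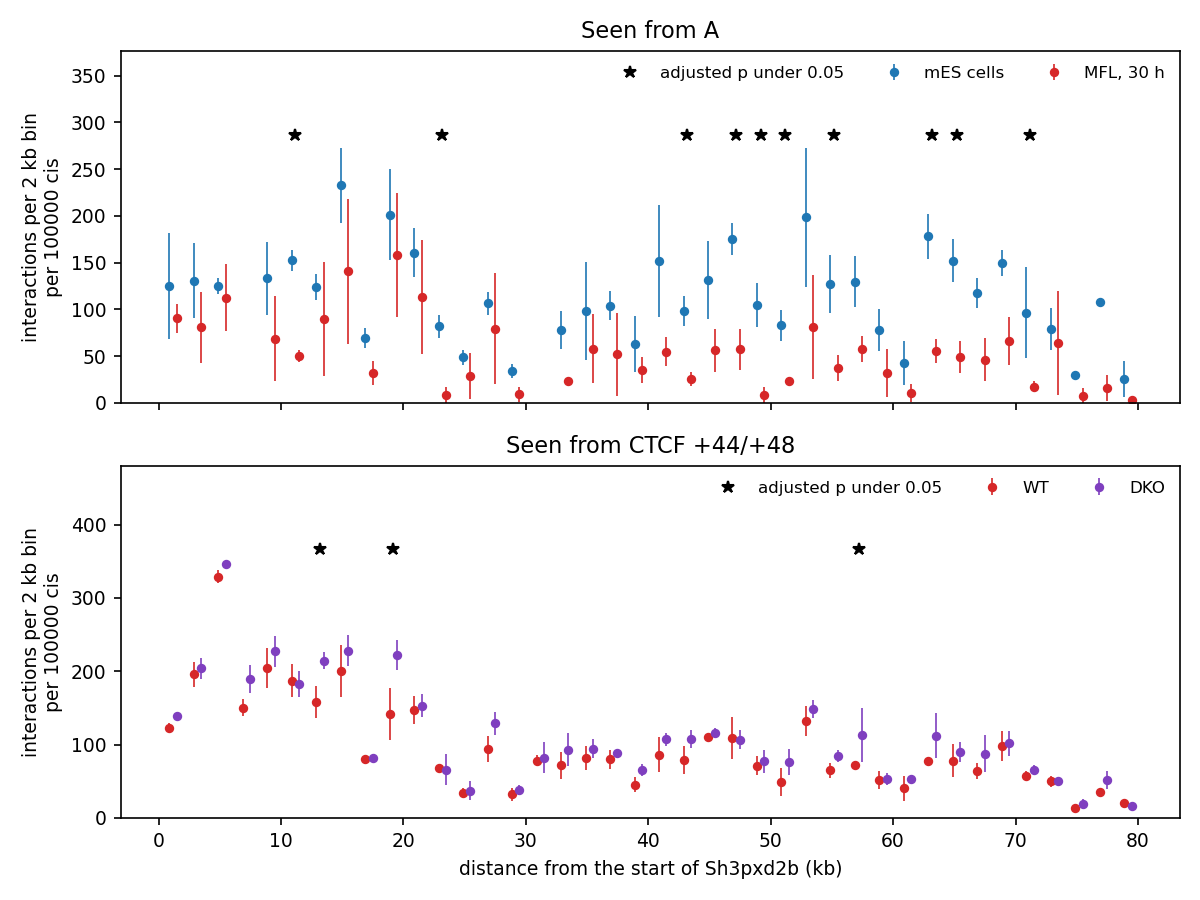
Interactions in 2 kb windows along Sh3pxd2b, for 100000 cis interactions, against the distance from the gene start in kb, from A (mES and MFL cells) and from the CTCF +44 and +48 sites (WT and DKO cells). Points are means with the SD of 3 replicates, and stars mark windows with a limma adjusted p under 0.05. From A, 10 windows have a star, and the MFL points lie further below the mES points towards the gene end, whereas from the CTCF sites 3 windows have a star.

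Between 0 h and 30 h of differentiation, the gene's values were lower at the later time from both viewpoints captured at each, but neither passed the test over all genes. From Hba1/2, 0.816%, 0.827% and 1.18% of cis interactions reached Sh3pxd2b at 0 h and 0.616%, 0.441% and 0.761% at 30 h. The groups did not overlap, and the log2 difference was −0.65 (SE 0.24, limma adjusted p = 0.22). The median over the 438 genes tested was also −0.65, and 1.14% of them were called lower and 0.457% higher. The lower ones included Ubtd2, Stk10 and Fbxw11 on the downstream side of Sh3pxd2b. With interactions within 500 kb as the total the log2 difference was −0.87 (adjusted p = 0.019), and with those outside the domain −0.29 (adjusted p = 0.73). From HS39_5, 1.18%, 1.70% and 1.63% at 0 h stood against 0.780%, 1.07% and 1.07% at 30 h, with a log2 difference of −0.62 (SE 0.22, limma adjusted p = 0.48). Of 386 genes, 0% were called lower and 0.259% higher, with 20 at an unadjusted p under 0.05 in either direction and a median of −0.14. In the MFL 30 h libraries of this comparison, 5 to 74 reads per run from Hba.1 and 13 to 135 from HS39_5 lay in the gene. A change of the size seen was therefore hard to separate from the spread. The WT libraries of the DKO comparison were also MFL 30 h cells. Their shares from HS39_5 were 1.17% to 1.56%, which overlap those at 0 h. From Hba1/2 they were 0.686% to 0.776%, below every 0 h value. These libraries were not tested against 0 h.

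In DKO cells, which lack both major enhancers, Sh3pxd2b had more interactions than in WT cells from Hba1/2 and from the CTCF sites. From Hba1/2, the WT replicates had 0.686%, 0.743% and 0.776% and the DKO replicates 1.49%, 1.13% and 1.3%, without overlap. The gene rose by 0.82 (SE 0.10) on the log2 scale (limma adjusted p = 1.7e-11), but it was 1 of 95 of the 421 genes tested (22.6%) that rose, 8 (1.9%) fell and the median over all genes was 0.61. With the interactions outside the domain as the total, the log2 difference was 0.32 (adjusted p = 0.078), and without the variance trend the adjusted p was 0.099. From the mean of +44 and +48, the WT replicates had 3.83%, 4.12% and 3.81% and the DKO replicates 4.75%, 4.30% and 4.66%. The log2 difference was 0.22 (SE 0.05, limma adjusted p = 0.00021), close to the median of 0.20 over 374 genes, of which 62 (16.6%) rose and 22 (5.88%) fell. From +44 alone it was 0.35 (adjusted p = 0.00090), from +48 alone 0.13 (adjusted p = 0.094), and without the variance trend the adjusted p of the pair was 0.49.

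From HS39_5, 1.17%, 1.56% and 1.33% in WT cells stood against 1.96%, 1.65% and 1.82% in DKO cells. The log2 difference of 0.42 (SE 0.12, limma adjusted p = 0.071) did not pass the test, where 1.99% of 352 genes rose, 0.852% fell and the median was 0.44. It passed with edgeR (adjusted p = 0.027), with interactions within 500 kb as the total (0.0081) and without WT replicate 2 (0.031). Of the gene's 40 windows tested from the CTCF sites, 3 were higher and 0 lower in DKO cells, where 1.8% of all windows were higher and 8.82% lower. The median log2 difference was 0.19 over the gene's windows and 0.08 over all windows. The first of the 3 by adjusted p, at chr11:32266001-32268000 in intron 1, held 141 ± 36 in WT and 222 ± 21 in DKO cells (log2 difference 0.67, limma adjusted p = 0.0018). The count ranged from 0 without DKO replicate 1 to 5 without WT replicate 1.

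The gene was also set against its mirror, here the interval of the gene's length at the same distance upstream of the viewpoint, so it takes in part of the domain for A, the CTCF sites and Hba.2 and lies upstream of the domain for the other viewpoints. From A, the log2 ratio of gene to mirror was −0.96 ± 0.13 in mES and −2.75 ± 0.07 in MFL cells (SD, n = 3). From +44 it was −2.54 ± 0.05 in WT and −1.88 ± 0.10 in DKO cells, from +48 −1.35 ± 0.12 and −1.1 ± 0.04, from Hba.1 −2.91 ± 0.10 and −2.26 ± 0.19, and from Hba.2 −3.77 ± 0.16 and −3.04 ± 0.11. From HS39_5 the gene was contacted more than its mirror in WT (0.79 ± 0.12) and DKO cells (1.14 ± 0.11) and at 0 h (1.03 ± 0.34). At 30 h the ratio from HS39_5 was near 0 (0.04 ± 0.40). None of these pairs overlapped, and each had an exact permutation p of 0.1 (adjusted over 13 comparisons, 0.163). The WT cells of the DKO comparison were also MFL 30 h cells, so the ratio near 0 was not seen in both sets. From R1 it was 0.19 ± 0.07 in mES and 0.59 ± 0.23 in MFL cells, higher in MFL cells and without overlap (exact permutation p = 0.1), opposite in direction to A. From E, EX and R2 the ratio overlapped between MFL and mES cells, and from Hba.1 and Hba.2 it overlapped between 0 h and 30 h (exact permutation p = 0.4 and 0.3).

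Without replicates, the AMKO and WT libraries gave values only. From R1, 426 of the AMKO reads and 259 of the WT reads lay in Sh3pxd2b, 1.29% (95% Wilson interval 1.17 to 1.42) and 1.09% (0.964 to 1.23) of cis reads. From R2, 516 and 238 reads were 1.05% (0.964 to 1.14) and 0.705% (0.621 to 0.800). The log2 ratio of AMKO to WT was 0.25 (0.02 to 0.47) from R1 and 0.58 (0.35 to 0.80) from R2. As a share of the interactions outside the domain the values were nearer, 1.75% and 1.70% from R1 and 1.51% and 1.35% from R2. These intervals cover counting error only, and the libraries, not the genotypes, are compared. The AMKO deletion lies between these viewpoints and Sh3pxd2b. In AMKO cells the gene is therefore nearer to R1 and R2 than the distances given above, and the deleted targets are missing from the cis total. What part of the ratios this makes up was not tested.

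The DRB, DMSO and untreated libraries had 68, 29 and 44 reads from Hba.1 in the gene. These were 0.831% (95% Wilson interval 0.656 to 1.05), 0.827% (0.576 to 1.18) and 0.824% (0.615 to 1.1) of cis reads. The log2 ratio of DRB to DMSO was 0.01 with a 95% interval from −0.62 to 0.63, so that a change within these bounds was not detectable at this depth. From Hba.2 the shares were 0.966%, 0.886% and 0.877%.

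Over all 23 pairs of a viewpoint outside the gene and a condition, the share of cis interactions in Sh3pxd2b ran from 4.57% from the CTCF sites in DKO cells to 0.524% from E in MFL cells. It was followed from the top by A in mES cells (4.35%), the CTCF sites in WT cells (3.92%), R1/R2 (3.24%) and E (3.01%) in mES cells, EX in mES cells (2.44%) and A in MFL cells (2.02%). In this order the ranges over replicates separated the CTCF sites in WT from R1/R2 in mES cells, E from EX in mES cells, and EX in mES from A in MFL cells. The other neighbours in these upper ranks overlapped. Below them came HS39_5 with 1.81% in DKO, 1.5% at 0 h, 1.35% in WT and 0.974% at 30 h, EX in MFL cells with 1.37%, and Hba1/2 with 1.31% in DKO, 0.942% at 0 h, 0.735% in WT and 0.606% at 30 h. R1/R2 in MFL cells had 0.982%, between Hba1/2 in DKO cells and HS39_5 at 30 h. With single libraries set aside, neighbours in these lower ranks overlapped, except that Hba1/2 at 0 h lay above Hba1/2 in WT cells without overlap.

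The genes with the most similar pattern over the 23 points were Ubtd2 (Pearson r = 0.96), Stk10 (0.93) and Fbxw11 (0.93), out of 18 genes within 500 kb that could be compared. They are the 3 highest by the correlation of log2(value per kb + 1), and all lie downstream of Sh3pxd2b, at distances of 27.2, 105 and 215 kb. Points from the same libraries are not independent, and the correlation is a description.

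As targets of the same viewpoints, these downstream neighbours were lower in MFL than in mES cells, as Sh3pxd2b was. From E, Ubtd2, Stk10 and Fbxw11 fell by 2.03, 2.02 and 1.93 on the log2 scale, where Sh3pxd2b fell by 2.53. From R1/R2 they fell by 1.29, 1.25 and 1.1, where Sh3pxd2b fell by 1.73. From A they fell by 0.92, 1.07 and 0.86, where Sh3pxd2b fell by 1.1. From EX they fell by 0.77, 0.97 and 0.72, where Sh3pxd2b fell by 0.83, less than Stk10. Il9r, on the other side of the domain, fell by 0.90 from E and by 0.69 from R1/R2, and did not pass the test from A (0.25) or from EX (0.15). In DKO cells, the downstream genes rose from Hba1/2 by 0.84, 0.99 and 1.03, where Sh3pxd2b rose by 0.82. Il9r had −0.02 there and did not pass the test. From the CTCF sites Il9r fell by 0.46 in DKO cells, and of the downstream genes Fbxw11 rose, by 0.33, while Ubtd2 (0.01) and Stk10 (0.10) did not pass the test. The differences between these genes were not tested.

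**Figure D5:**
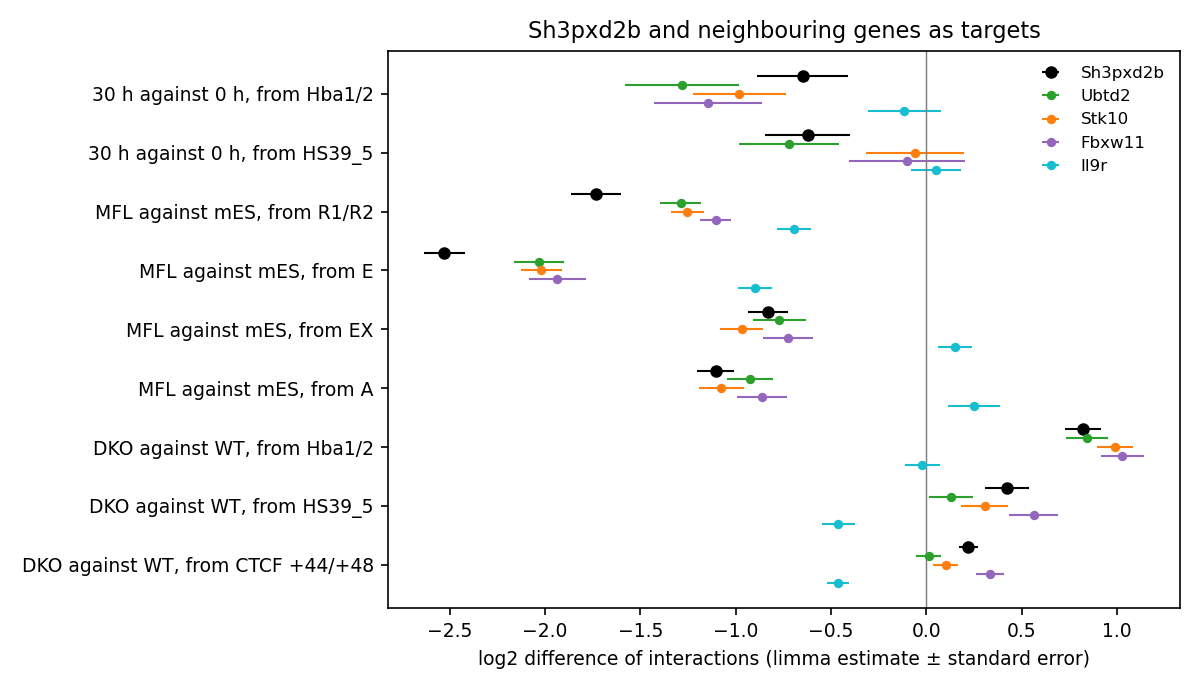
Log2 difference of interactions for Sh3pxd2b, Ubtd2, Stk10, Fbxw11 and Il9r as targets in 9 comparisons. Points are limma estimates and bars their standard errors. Sh3pxd2b and the genes downstream of it lie to the left of 0 in all 4 comparisons of MFL with mES cells, while Il9r lies to the right of 0 from EX and A.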

How the data were processed

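The authors prepared DpnII 3C libraries, enriched them by double oligonucleotide capture, trimmed reads with Trim Galore, mapped them with Bowtie per the submitters' processing notes, and counted reporter reads on mm9 fragments. Versions are not given in the sources used here. The values the authors deposited are nearest to RPM, but each viewpoint was set by them to a total of 100000 reporter reads over all chromosomes. Whole reads were recovered for all viewpoints except A and EX of some libraries and Hba.2 with DRB (100% of values whole within the rounding of the files), and edgeR was left out for A and EX.

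Fragments nearer than 1 kb to any viewpoint captured together with it were dropped, values were scaled to 100000 interactions on chromosome 11, and runs or technical replicates, and both viewpoints of a pair, were averaged. Runs at 0 h and 30 h differed by less than sampling noise, technical replicates of the MFL and mES captures from A to EX by more. The labels call replicates biological without naming animals or cultures, so p-values measure the spread between these libraries. Genes were taken from the GENCODE annotation of mm9. Genes, and 2 kb windows, whose mean was 10 or more were tested with limma 3.58.1 on log2(value + 1), with Benjamini-Hochberg adjustment over all features tested and a threshold of 0.05. Adding 1 understates changes of low features. Shares and ratios were tested by exact permutation, two-sided, of 3 replicates against 3, which has 20 arrangements. Single libraries had 95% Wilson intervals.

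A trend of the variance on the mean was used in limma. This was settled after both settings had been seen on the data, and on simulated counts 0% to 6.67% of calls with the trend were false, while 72.8% of genes changed 4-fold were recovered from C with it and 55.2% without it. With the trend, 28.2% of genes changed 2-fold were recovered from C. Between 0 h and 30 h, 8.99% (Hba1/2) and 5.43% (HS39_5) of genes changed 4-fold were. A and EX were not simulated. The counts were drawn with a spread fitted by edgeR, so the simulation cannot decide which setting suits the real data. The alternatives were edgeR 4.0.16, other totals, filters, pseudocounts and window sizes, a replicate block, and leaving out each replicate. Replicate numbers were taken to pair the samples where every correlation between libraries of the same number exceeded 0.1. This held only from CX (0.10 to 0.13), and not from C, E, EX or A of the same libraries. From E (0.04 to 0.08) and Hba1/2 at 0 h and 30 h (0.03 to 0.06) the correlations were weaker, although every sample correlated best with its own number.

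The gene, its neighbours and all intervals were chosen with earlier results of these data known. The flank-to-domain ratio, the gene-to-mirror ratio, the comparison of parts of the gene, the share within 500 kb, the fit without a variance trend, the total outside the domain and the thinning of reads were added after the data were seen. A value of 3 reads corresponded to 1.95 to 258 per 100000 cis interactions, depending on viewpoint and library. The window named for each comparison and direction was the one in the gene that passed the threshold with the lowest adjusted p and no overlap between groups.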

Additional observations from a re-analysis of the deposited data

How the results depend on the processing

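Of the values recomputed under an alternative, 424 kept their direction, their side of the threshold and their size, 54 moved, 6 gained and 8 lost a call and 2 were reversed. Without a variance trend the log2 differences did not change but the calls were lost for the gene from EX (−0.83), A (−1.1), C (−0.58) and CX (−0.62) between MFL and mES cells, and from Hba1/2 (0.82) and the CTCF sites (0.22) between DKO and WT cells, and all 4 counts of called windows in the gene became 0. The calls from E and R1/R2 held. The cause was not tested. With interactions outside the domain as the total, the gene from Hba1/2 in DKO cells had 0.32 and was no longer called. From the +48 site alone it had 0.13 and was not called. With interactions within 500 kb as the total, the gene passed from Hba1/2 at 30 h (−0.87) and from HS39_5 in DKO cells (0.58), which also passed with 10 in place of 1 added (0.42), without a filter (0.42) and with edgeR (0.43).

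Shares from C and CX moved with the total. Within 500 kb, the region before the gene from C was reversed (0.26), as was the flank from CX (0.20), and the other log2 differences were −1.54 (domain), 0.54 (flank), −0.13 (own gene) and −0.33 (downstream window) from C, and −2.08 (domain), −0.095 (region before the gene), −0.075 (own gene) and −0.13 (downstream window) from CX. As deposited they were −2.23, −0.16, −0.43, −0.83 and −1.02 from C and −2.90, −0.62, −0.92, −0.90 and −0.95 from CX, for the domain, the flank, the region before the gene, the own gene and the downstream window. With 5 kb left out around viewpoints, they were −2.21 (domain) and −0.70 (own gene) from C, and −2.85 (domain), −0.77 (downstream window) and 2.46 (flank over domain) from CX. With the first run alone, they were −1.77 (domain), −0.061 (flank), −0.49 (own gene), 1.71 (flank over domain) and 0.70 (flank over its mirror) from C, and −2.45 (domain), −0.55 (own gene) and 2.08 (flank over domain) from CX.

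Of the counts of lower windows, that from A (10) was 1 with 5 kb left out, 18 as deposited, 2 within 500 kb, 0 without a filter and 1 with the first run. That from C (30) was 4 within 500 kb, 11 with the first run and 15 with 5 kb windows, and that from CX (28) was 1 within 500 kb and 15 with 5 kb windows. The count of higher windows from the CTCF sites (3) was 6 within 500 kb, 1 without a filter and 1 with 5 kb windows. Leaving out each replicate gave 0 to 13 lower windows from A, 21 to 32 from C, 23 to 28 from CX, and 0 to 5 higher windows from the CTCF sites, and log2 differences of 0.33 to 0.53 for the gene from HS39_5 in DKO cells.

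With a replicate block, the log2 difference of the gene was −0.62 from CX and still called, and the block changed the call of no other gene total (HS39_5 in DKO cells, adjusted p = 0.20). Every sample correlated best with its own number from CX, E and Hba1/2 at 0 h and 30 h, which is a hint from the data and not from the design. Depth limits the values from Hba1/2 at 30 h, where as few as 5 reads lay in the gene. Thinning mES reads to the MFL depth left every share, ratio and call from C and CX on the same side.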
